A study of Mus musculus with 44 samples.

Results

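The 10 genes described here are members of the Notch pathway, taken by their symbols from the deposited table of read counts: the 4 receptors Notch1, Notch2, Notch3 and Notch4, the 2 ligands Jag1 and Jag2, and the 4 target genes Hey1, Heyl, Hes1 and Nrarp. They are 10 of the 55486 genes in the table and 10 of the 16601 that were expressed highly enough to be tested, so that none was lost to the filter on low counts. They were measured by stranded mRNA sequencing in fibroblasts sorted from mouse mammary glands as EpCAM-/CD49f-/CD31-/CD45- cells, with an antibody against CD26 and with GFP as the mark of the Engrailed-1 (En1) lineage. The recipients were En1-Cre;mTmG mice, in which cells that have expressed the En1-Cre driver carry membrane GFP and all other cells membrane tdTomato. Donor mammary tissue was control, WB1P (WapCre;Brca1F/F;Trp53F/F) or WB1P-Myc (the same alleles with Col1a1invCAG-Myc-IRES-Luc), and fibroblasts from control glands are called NFs and those from tumors CAFs, after the study. There were 12 control libraries from 3 mice, 16 WB1P libraries from 5 mice and 16 WB1P-Myc libraries from 5 mice. Each control label carries a pair of mouse numbers and was counted as 1 mouse, although it may stand for pooled animals, and 2 of the WB1P-Myc mice (23 and 69) are marked 8x8, a tumor size in millimeters. The Wap promoter drives Cre in mammary epithelium, and donor fragments were placed in fat pads that still held the recipient's own gland. Control libraries are titled wildtype, the En1-Cre strain had been crossed to FVB/n-based mTmG mice for 2 generations, and donors and recipients were a few weeks old at transplantation, while the age of each mouse at harvest is not given in the sources used here.

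The En1+ and double-negative libraries of a mouse were summed as its CD26- fibroblasts, and the CD26+ and double-positive libraries as its CD26+ fibroblasts, which gave 25 sums of 5790599 to 29498005 counts. Values are CPM, the reads of a gene per 1000000 counted reads of a sum. Dpp4, the gene that encodes CD26, ran from 0.619 to 17.6 CPM in the CD26- sums and from 223 to 846 CPM in the CD26+ sums, so that the sort was visible in every mouse. WB1P mouse 10 had a CD26- sum only, from 1 library, the CD26- sum of WB1P-Myc mouse 21, both sums of WB1P-Myc mouse 95 and the CD26+ sums of WB1P-Myc mouse 67 and WB1P mouse 12 were also 1 library each, and the CD26+ sum of WB1P mouse 12 was the shallowest. The fibroblast markers Col1a1, Col1a2, Dcn, Lum and Pdgfra were detected in all 25 sums. Markers of other cells also differed between the groups. The 8 pericyte markers examined summed to a median of 143 CPM in CD26- NFs, 2061 CPM in WB1P CD26- CAFs and 3625 CPM in WB1P-Myc CD26- CAFs, against 128, 330.0 and 267 CPM in the corresponding CD26+ groups. The immune markers examined summed to a median of 26.6 CPM in CD26+ NFs and 62.7 and 52.6 CPM in WB1P and WB1P-Myc CD26+ CAFs. In the corresponding CD26- groups the medians were 20.1, 15.85 and 46.1 CPM. Cd3e, a T-cell gene, was at medians of 12.1, 49.0 and 37.65 CPM in these CD26+ groups. The part of T cells in the CD26+ values was not tested. In sorted bulk samples, a change in the share of a cell type and a change in RNA per cell cannot be told apart.

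Notch receptors are single-pass membrane proteins that are cut after they bind a ligand on a neighboring cell, and the freed intracellular domain then enters the nucleus and activates transcription together with the DNA-binding protein RBPJ. Jagged ligands are presented by the neighbor, whereas the HES and HEY genes encode transcriptional repressors that are induced by the pathway and Nrarp encodes a small ankyrin repeat protein that dampens it. In vessels, NOTCH3 is best known as the receptor of pericytes and vascular smooth muscle cells, in which JAG1 from the endothelium is its main ligand. In fibroblasts, Notch signaling has been linked to both activation and quiescence.

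Of the 10 genes, Notch3 and Nrarp were the ones whose difference between CD26 classes was called larger in tumors than in control glands. The 250 bases upstream of their RefSeq start sites (GRCm38.p6) are therefore shown, written 5′ to 3′ on the strand of the gene, with capitals for every match to either of 2 motifs that HES and HEY repressors bind, the E-box CACGTG and the N-box CACNAG, on both strands.
Notch3, chr17:32166891-32167140, minus strand: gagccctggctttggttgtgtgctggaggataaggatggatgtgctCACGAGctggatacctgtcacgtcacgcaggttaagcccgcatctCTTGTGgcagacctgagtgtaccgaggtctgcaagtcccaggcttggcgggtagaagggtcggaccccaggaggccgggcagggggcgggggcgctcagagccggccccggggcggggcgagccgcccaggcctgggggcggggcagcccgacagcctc
Nrarp, chr2:25180508-25180757, plus strand: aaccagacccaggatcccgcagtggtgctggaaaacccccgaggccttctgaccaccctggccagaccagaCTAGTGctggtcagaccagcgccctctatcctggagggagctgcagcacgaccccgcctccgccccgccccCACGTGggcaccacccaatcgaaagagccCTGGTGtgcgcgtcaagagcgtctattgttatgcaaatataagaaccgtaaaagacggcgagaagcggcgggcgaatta
Neither window overlaps an annotated gene of GENCODE M21. The Notch3 window held 2 N-box matches, whose first bases lay 204 and 159 bases before the start site, and no E-box. The Nrarp window held 1 E-box at 108 bases and 2 N-boxes at 179 and 79 bases before the start site. The RBPJ core TGGGAA was in neither window on either strand. Over 32851 promoter windows of the same length, 21.6% held the RBPJ core, 6.02% an E-box and 36.7% an N-box. Windows were used for 7 of the 10 genes, of which 0 held the RBPJ core, 1 held an E-box (Nrarp) and 4 held an N-box (Notch1, Notch2, Notch3 and Nrarp). Such matches describe the letters of a window and no binding was measured.

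**Figure D1:**
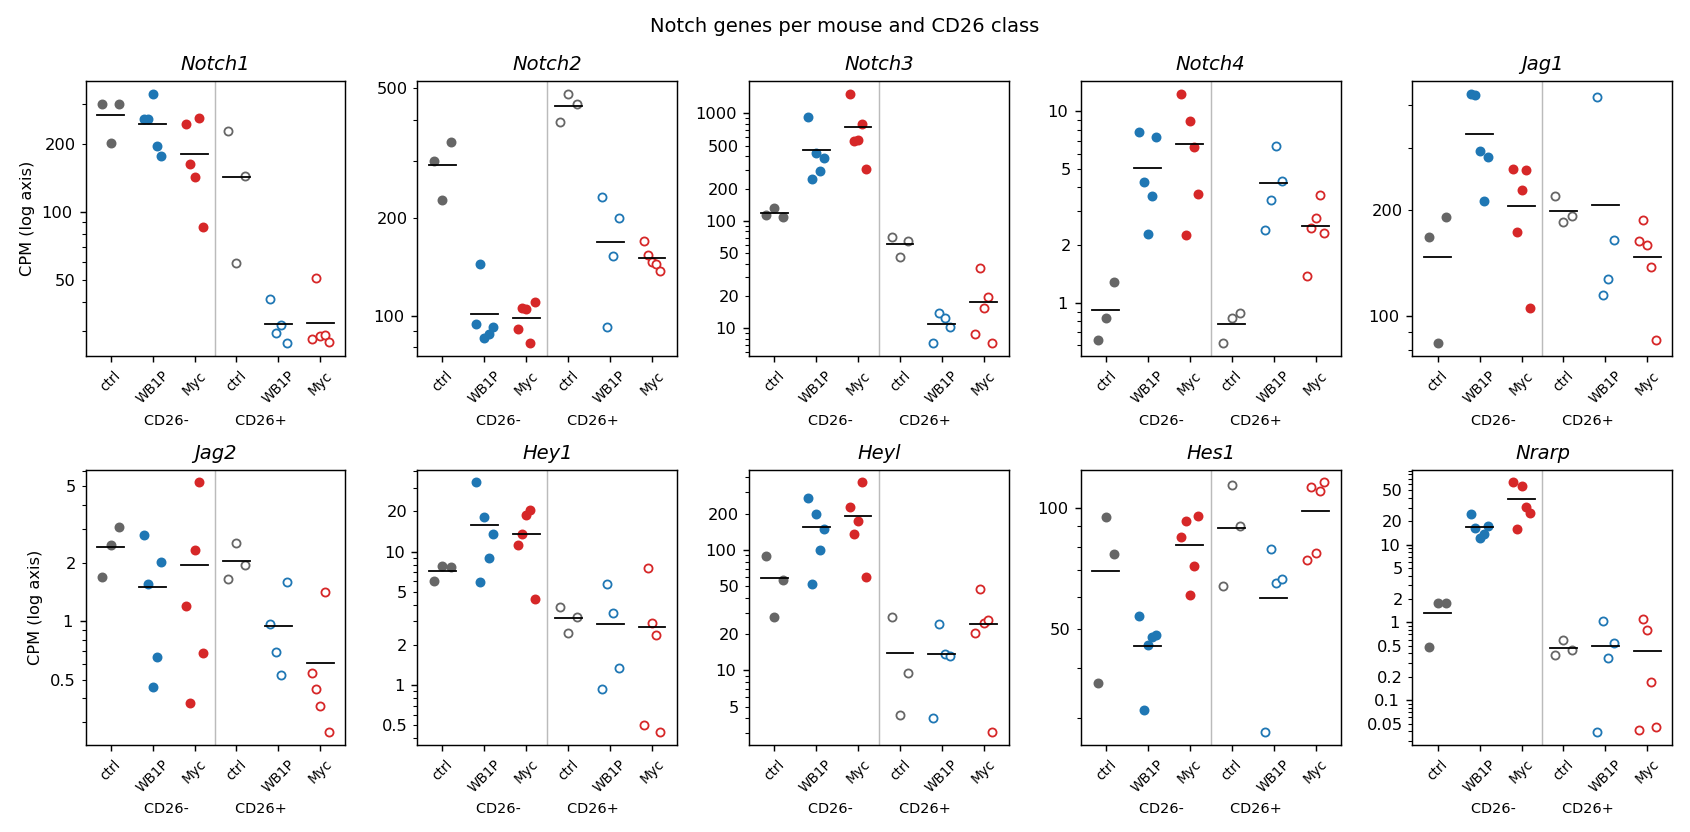
CPM of the 10 Notch genes on a log axis; each point is 1 mouse, filled for its CD26- and open for its CD26+ fibroblasts, in control (gray), WB1P (blue) and WB1P-Myc (red, labelled Myc), and bars are group means. Notch3 and Nrarp are higher in tumors than in control among CD26- fibroblasts, and Notch3 is lower among CD26+ fibroblasts, where its highest tumor value is 36.8 CPM against a lowest control value of 46.4 CPM.

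First, CAFs were compared with NFs of the same CD26 class, with all 25 sums in the fit of 6 groups. A gene was called when its false discovery rate (FDR) over all 16601 genes was under 0.05 in edgeR's quasi-likelihood test, at any fold. The WB1P and the WB1P-Myc comparison share the same 3 control mice. Among CD26- fibroblasts, 4 of the 10 genes were called higher in WB1P CAFs (Notch3, Notch4, Jag1 and Nrarp) and 1 lower (Notch2), where 17.6% of all genes were called higher and 17.8% lower. In WB1P-Myc CD26- CAFs 3 were called higher (Notch3, Notch4 and Nrarp) and 1 lower (Notch2), against 19.1% and 17.5% of all genes. Among CD26+ fibroblasts, 1 gene was called higher (Notch4) and 3 lower (Notch1, Notch2 and Notch3) in WB1P CAFs, against 17.4% and 16.1% of all genes. The same counts, with the same genes, were found in WB1P-Myc CD26+ CAFs, against 17.4% and 17.3% of all genes. The median log2 fold change of the 10 genes was 1.28 and 0.70 in CD26- CAFs of WB1P and WB1P-Myc, and -0.29 and -0.31 in the CD26+ CAFs, whereas the median of all genes tested lay between -0.01 and 0.02 in these comparisons.

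Notch3 moved in opposite directions in the CD26 classes. In CD26- NFs it was at 114, 132 and 108.5 CPM in the 3 mice. In WB1P CD26- CAFs it was at 244, 292, 388, 428 and 915 CPM, and in WB1P-Myc CD26- CAFs at 305.5, 557, 563, 803 and 1529 CPM. All 10 tumor values were thus above all 3 control values. The fitted log2 fold changes were 2.06 ± 0.49 (SE, FDR = 0.0026) in WB1P and 2.64 ± 0.51 (FDR = 0.00046) in WB1P-Myc. In CD26+ NFs Notch3 was at 70.3, 46.4 and 64.5 CPM, while in CD26+ CAFs it was at 7.26 to 13.8 CPM in the 4 WB1P mice and at 7.35 to 36.8 CPM in the 5 WB1P-Myc mice. Here every tumor value was below every control value, and Notch3 fell by 2.32 ± 0.49 on the log2 scale in WB1P (FDR = 0.0013) and by 1.73 ± 0.45 in WB1P-Myc (FDR = 0.0056).

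The other receptors each had a pattern of their own. Notch1, which encodes the most widely studied receptor of the family, was at 202 to 300.1 CPM in CD26- NFs, at 177 to 332 CPM in WB1P and at 85.8 to 259 CPM in WB1P-Myc CD26- CAFs, and these ranges overlapped. Its log2 fold changes there were 0.01 ± 0.37 (FDR = 0.99) and -0.59 ± 0.36 (FDR = 0.21). In CD26+ fibroblasts, however, it was at 226, 59.5 and 144 CPM in the control mice and at 26.4 to 41.3 CPM in WB1P and 26.9 to 51.3 CPM in WB1P-Myc CAFs. It was called lower by 1.97 ± 0.39 and by 2.08 ± 0.36 on the log2 scale (FDR = 0.00074 and 0.00026). The groups did not overlap, although control mouse 49/52 lay close to the tumors.

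Notch2 was called lower in all 4 comparisons. In CD26- NFs it was at 228 to 342 CPM and in CD26- CAFs at 82.4 to 145 CPM over the 10 tumor mice. In CD26+ NFs it was at 395 to 482 CPM and in CD26+ CAFs at 92.2 to 232 CPM over the 9 tumor mice. The log2 fold changes were -1.37 ± 0.24 and -1.57 ± 0.25 in CD26- and -1.17 ± 0.26 and -1.45 ± 0.24 in CD26+ CAFs of WB1P and WB1P-Myc. Neither CD26 class showed an overlap between NFs and CAFs.

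Notch4, a receptor best known from endothelium, was low throughout and was called higher in all 4 comparisons. It was at 0.614 to 1.28 CPM over the 6 sums of NFs and at 1.38 to 12.4 CPM over the 19 sums of CAFs, without overlap. The NF values rest on 16 to 35 counts per sum, so that the size of these differences is uncertain. The log2 fold changes were 2.58 ± 0.49 and 2.83 ± 0.50 in CD26- and 2.59 ± 0.51 and 1.78 ± 0.48 in CD26+ CAFs of WB1P and WB1P-Myc. Of 9 endothelial markers, 6 were called lower in WB1P and 3 in WB1P-Myc CD26- CAFs, with 1, Emcn, called higher in both (log2 fold changes 1.66 and 3.59, from a mean of 1.89 CPM in CD26- NFs to 5.48 and 23.7 CPM). In CD26+ CAFs 6 were called lower and 0 higher in each model, and Tek held 309 of the mean summed 369 CPM in CD26+ NFs. Cdh5, which defines endothelium, was at 4.87 to 13.2 CPM in CD26- NFs, at 0.996 to 2.71 CPM in WB1P and at 0.689 to 7.84 CPM in WB1P-Myc CD26- CAFs. The part of endothelial cells in the Notch4 values was not tested.

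Of the ligands, Jag1 was abundant and Jag2 scarce. Jag1 was at 168, 83.6 and 191 CPM in CD26- NFs and at 213 to 430.1 CPM in WB1P CD26- CAFs, which did not overlap, and it was called higher there (log2 fold change 1.30 ± 0.43, FDR = 0.023). Without control mouse 49/52, the lowest of the 3, the difference was 1.04 with FDR = 0.13. In WB1P-Myc CD26- CAFs Jag1 was at 105 to 262 CPM, which overlapped the NFs (0.46 ± 0.42, FDR = 0.40). In CD26+ fibroblasts it was at 186 to 220.0 CPM in NFs, at 115 to 420 CPM in WB1P and at 85.3 to 188 CPM in WB1P-Myc CAFs, and it was called in neither tumor. WB1P mouse 93 held the highest CD26+ value, at 420 CPM, and had 426 CPM in its CD26- fibroblasts. Jag2 ran from 0.267 to 5.24 CPM over all 25 sums, on 4 to 138 counts. It was called in no comparison in edgeR's fit of all 25 sums and 6 groups. In WB1P-Myc CD26+ CAFs its log2 fold change was -1.61 ± 0.68 (FDR = 0.071), and without mouse 23 it was -2.24 (FDR = 0.0080). This difference was also called by the DESeq2 Wald test (FDR = 0.049) and without the mice marked 8x8 (FDR = 0.029). The same held with only the groups compared in the fit (FDR = 0.036) and with single libraries as units (FDR = 0.039). In CD26+ fibroblasts Jag2 did not overlap between NFs and CAFs of either model.

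Among the targets, Nrarp was called and the HES and HEY genes were not. In CD26- NFs Nrarp was at 0.487, 1.78 and 1.76 CPM, from 13, 45 and 48 counts. In WB1P CD26- CAFs it was at 12.2 to 24.5 CPM and in WB1P-Myc CD26- CAFs at 15.9 to 63.6 CPM, with at least 315 counts in each mouse. The log2 fold changes were 3.79 ± 0.67 (FDR = 0.00016) and 4.80 ± 0.70 (FDR = 2.8e-05). In CD26+ fibroblasts Nrarp stayed at 0.384 to 0.595 CPM in NFs and at 0.0389 to 1.11 CPM in the CAFs, on 1 to 15 counts in every sum, so that a change of moderate size was not detectable at this depth. The fitted differences there were -0.10 ± 0.78 and -0.27 ± 0.75 (FDR = 0.93 and 0.81).

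Heyl, Hey1 and Hes1 passed the threshold in none of the 4 comparisons. Heyl, the HEY family member best known from vascular smooth muscle, was at 89.7, 27.8 and 56.3 CPM in CD26- NFs, at 52.5 to 269.9 CPM in WB1P and at 59.7 to 364 CPM in WB1P-Myc CD26- CAFs, with log2 fold changes of 1.51 ± 0.72 (FDR = 0.11) and 1.72 ± 0.73 (FDR = 0.069). The control mice differed from each other by more than 3-fold, and the groups overlapped. In WB1P-Myc the Heyl difference was called by the DESeq2 Wald test (FDR = 0.030), with single libraries as units (FDR = 0.0094), without control mouse 82/83 (FDR = 0.047) and without WB1P-Myc mouse 69 (FDR = 0.023). Hey1 was at 6.03 to 7.82 CPM in CD26- NFs and at 4.38 to 33.1 CPM in CD26- CAFs, with differences of 1.26 ± 0.69 and 0.93 ± 0.68 on the log2 scale (FDR = 0.16 and 0.29). Hes1, a target that many other pathways also control, ran from 27.7 to 116 CPM over all 25 sums. Its log2 fold changes against NFs lay between -0.48 ± 0.26 and 0.23 ± 0.26 (FDR = 0.15 to 0.53).

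**Figure D2:**
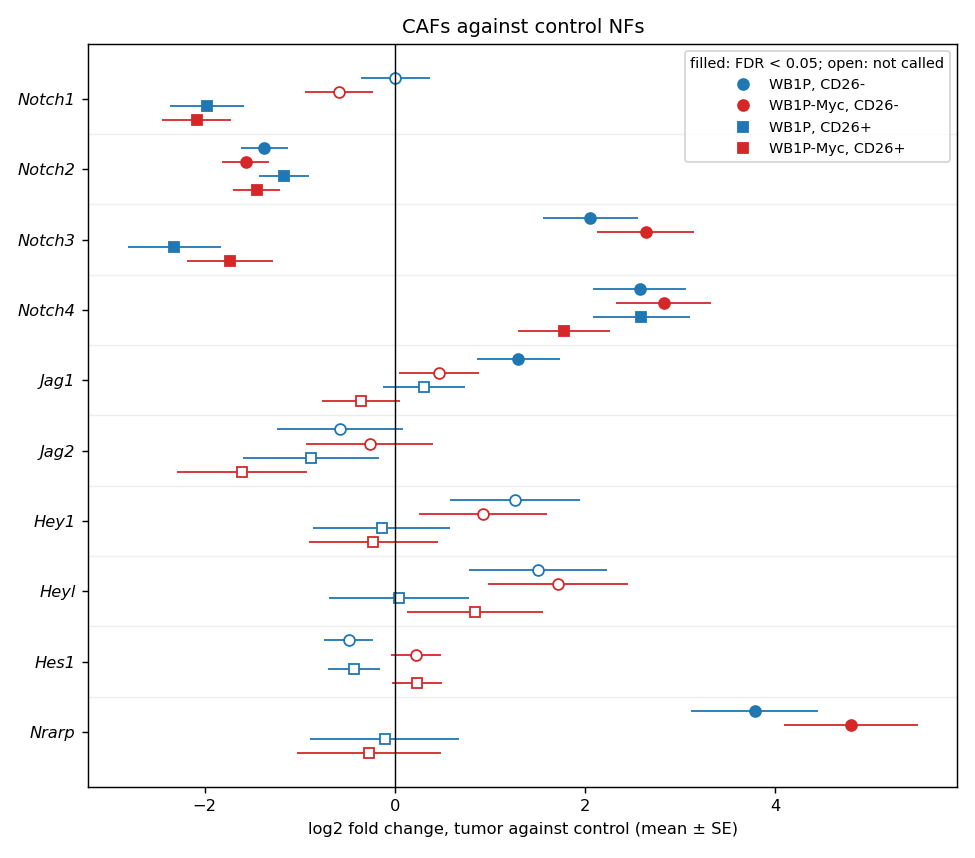
Log2 fold changes (± SE) of the 10 genes in CAFs against control NFs, with circles for CD26- and squares for CD26+ fibroblasts, blue for WB1P and red for WB1P-Myc, filled where the FDR was under 0.05. Notch3 lies at 2.06 and 2.64 in CD26- and at -2.32 and -1.73 in CD26+ fibroblasts, Notch2 lies below and Notch4 above 0 in all 4, and Nrarp is filled in CD26- and open in CD26+ fibroblasts.

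WB1P-Myc CAFs were then compared with WB1P CAFs directly. In CD26- CAFs edgeR called 0 of the 10 genes, where 0.512% of all genes were called, and DESeq2 called 0, while 3 had an unadjusted p under 0.05 (Hes1, Jag1 and Nrarp). Hes1 was the gene without overlap, at 31.4, 45.6, 47.7, 48.3 and 54.0 CPM in WB1P and at 60.9, 71.6, 84.5, 92.9 and 95.5 CPM in WB1P-Myc, a log2 difference of 0.71 ± 0.23 (FDR = 0.15). With single libraries as units, Hes1 was called (0.83, FDR = 0.0076), but libraries of 1 mouse are then taken as independent. Jag1 was lower (-0.84 ± 0.36, FDR = 0.28) and Nrarp higher (1.01 ± 0.47, FDR = 0.33) in WB1P-Myc by values that did not pass the test. In CD26+ CAFs edgeR called 0 of the 10, and 0% of all genes, DESeq2 again called 0, and 1 gene, Hes1, had an unadjusted p under 0.05 (0.66 ± 0.24 on the log2 scale, FDR = 1.0).

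Next, CD26+ were compared with CD26- fibroblasts within each kind of gland. In NFs 0 of the 10 genes were called by edgeR and 0 by DESeq2, where 2.67% of all genes were called higher and 1.49% lower in CD26+ cells, and 2 had an unadjusted p under 0.05. These were Notch2, 228 to 342 CPM in CD26- and 395 to 482 CPM in CD26+ NFs (log2 difference 0.67 ± 0.28, FDR = 0.24), and Heyl (-1.97 ± 0.80, FDR = 0.22), which was higher in the CD26- sum of each of the 3 mice. With mouse as a replicate block, which compares the sums of the same mouse, both were called: Notch2 at 0.69 (FDR = 0.045) and Heyl at -2.24 (FDR = 0.0020).

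In CAFs more of these genes were called between the CD26 classes than in NFs, and the difference itself was tested separately. In WB1P, 5 genes were called lower in CD26+ CAFs (Notch1, Notch3, Hey1, Heyl and Nrarp) and 1 higher (Notch2), where 13% of all genes were called higher and 13% lower. In WB1P-Myc, 6 were called lower (the same 5 and Notch4) and 1 higher (Notch2), where 9.29% of all genes were called higher and 10.7% lower. The median log2 difference of the 10 genes was -1.49 in WB1P and -1.87 in WB1P-Myc, and that of all genes tested 0.01 and -0.01. With mouse as a replicate block the counts were 8 and 9 of 10, but no share of all genes is given for that fit. The genes added were Jag1 (-0.62, FDR = 0.044) and Hes1 (0.49, FDR = 0.016) in WB1P, and Jag2 (-1.31, FDR = 0.0057) and Hes1 (0.44, FDR = 0.016) in WB1P-Myc.

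Notch3 showed the widest split of the receptors. In the 9 tumor mice with both sums, it was 15.1-fold to 171-fold higher in the CD26- than in the CD26+ sum of the same mouse, with a median of 36.7-fold. In the 3 control mice the ratio was 1.62, 1.68 and 2.85, so that no control mouse reached the lowest tumor mouse. The fitted log2 differences of CD26+ against CD26- were -0.89 ± 0.51 (FDR = 0.49) in NFs, -5.27 ± 0.52 (FDR = 4.4e-07) in WB1P and -5.26 ± 0.47 (FDR = 9.3e-08) in WB1P-Myc.

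Nrarp, Heyl and Hey1 followed the same side. Nrarp was lower in CD26+ CAFs by 5.31 ± 0.69 in WB1P (FDR = 8.4e-06) and by 6.49 ± 0.64 in WB1P-Myc on the log2 scale (FDR = 3.0e-07), with 1 to 15 counts per CD26+ sum behind these values. Heyl was at 4.00 to 24.4 CPM in WB1P and 3.08 to 47.4 CPM in WB1P-Myc CD26+ CAFs, and its difference was -3.44 ± 0.72 (FDR = 0.0012) and -2.84 ± 0.64 (FDR = 0.0024). Hey1 was at 0.932 to 5.70 CPM in WB1P and 0.446 to 7.49 CPM in WB1P-Myc CD26+ CAFs, with differences of -2.49 ± 0.68 (FDR = 0.0089) and -2.24 ± 0.61 (FDR = 0.011). Each of these targets was higher in the CD26- sum of all 9 tumor mice and of all 3 control mice. In WB1P-Myc, Hey1 was no longer called without mouse 23 or without both mice marked 8x8 (-1.88 for the latter).

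Notch1 was 3.19-fold to 11.3-fold higher in the CD26- sum of the 9 tumor mice and 1.32-fold to 3.40-fold higher in the control mice, with log2 differences of -2.79 ± 0.37 in WB1P and -2.31 ± 0.33 in WB1P-Myc (FDR = 1.1e-05 and 2.9e-05). Notch2 went the other way in every mouse. It was higher in the CD26+ sum of all 12 mice with both sums, with log2 differences of 0.88 ± 0.23 in WB1P (FDR = 0.0069) and 0.78 ± 0.22 in WB1P-Myc (FDR = 0.012). The WB1P call was lost without mouse 35 (0.75, FDR = 0.053) and the WB1P-Myc call without mouse 21, without mouse 23 or without the mice marked 8x8. Notch4 was called lower in WB1P-Myc CD26+ CAFs (-1.22 ± 0.38, FDR = 0.026), but not without mouse 21 (-0.78) or mouse 95 (-1.15), and in WB1P it did not pass the test (-0.15 ± 0.40, FDR = 0.82). Jag1 and Hes1 each differed by less than 0.5 on the log2 scale in both tumors and were not called with all mice and no block, but without WB1P mouse 93 the Jag1 difference in WB1P was -1.10 (FDR = 0.019).

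**Figure D3:**
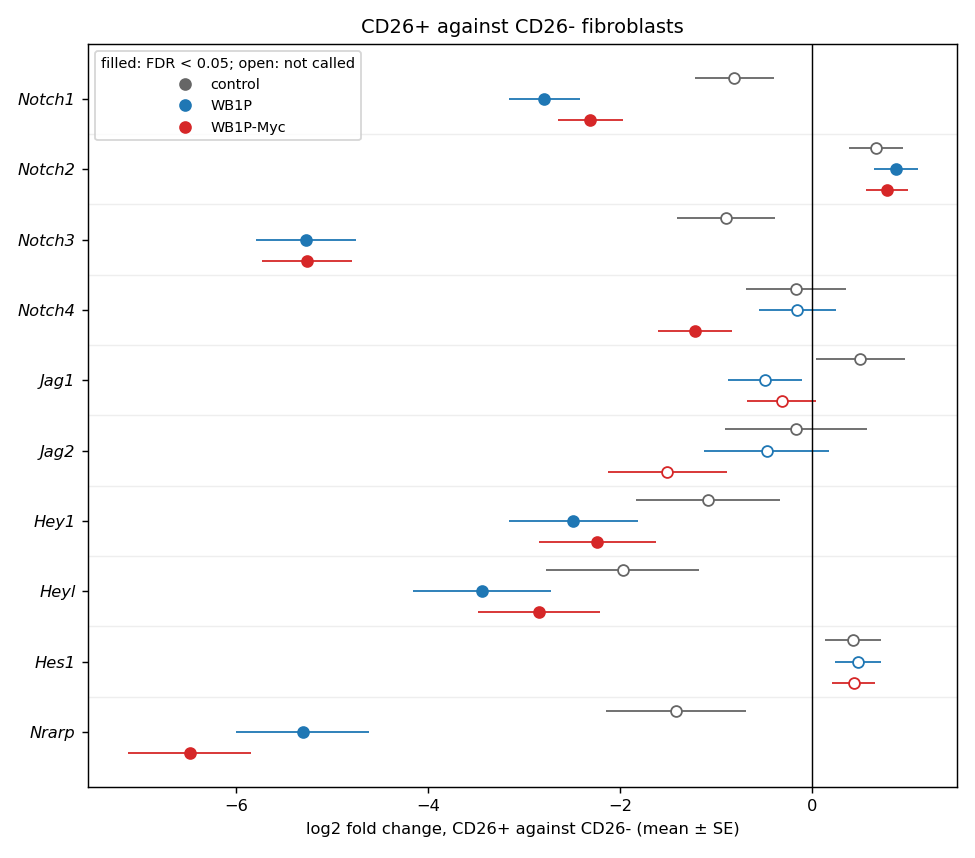
Log2 fold changes (± SE) of the 10 genes in CD26+ against CD26- fibroblasts of control (gray), WB1P (blue) and WB1P-Myc (red) glands, filled where the FDR was under 0.05. Notch3 lies at -0.89 in control and at -5.27 and -5.26 in the tumors, Notch2 lies above 0 in all 3, and no gene is filled in control.

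The difference between these CD26 differences was tested itself, as the mean of both tumor models against control. Of the 10 genes, 2 were called lower (Notch3 and Nrarp) and 0 higher, where 1.39% of all genes were called lower and 0.723% higher. For Notch3 the term was -4.37 ± 0.63 (FDR = 0.00039) and for Nrarp -4.48 ± 0.90 (FDR = 0.0073). Notch3 was called in each of the 19 alternatives run for this term. Nrarp was not called when any of the 3 control mice was left out (-4.19 to -4.76, FDR = 0.052 to 0.061), each of which leaves 2 control mice. For Notch1 the term was -1.74 ± 0.48 (FDR = 0.060), and with mouse as a replicate block it was -1.48 (FDR = 0.029). For Heyl and Hey1 it was -1.17 ± 0.89 and -1.28 ± 0.87 (FDR = 0.66 and 0.60), so that a larger CD26 difference in tumors was not shown for these targets.

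Receptor levels can be compared with each other only per length, so CPM was divided by an exon length in kilobases. It was the length covered by the exons of all annotated transcripts of a gene (14232 bases for Notch1, 10782 for Notch2, 8089 for Notch3 and 8061 for Notch4). Shares and their ranking depend on this length, and no other, such as that of a single transcript, was tried. Of the summed receptor CPM per kilobase, Notch2 held a mean of 44.3% ± 3.5 (SD, n = 3) in CD26- NFs, Notch1 30.9% ± 3.1 and Notch3 24.7% ± 6.0. In CD26- CAFs Notch3 held 64.4% ± 11.5 (n = 5) in WB1P and 77.7% ± 6.5 (n = 5) in WB1P-Myc, and its share of 48.5% in the lowest tumor mouse was above the 31.6% in the highest control mouse. Notch2 held 12.7% and 10.1% in these groups. In CD26+ fibroblasts Notch2 held most of the receptor transcript everywhere, with 70.3% ± 11.0 in NFs, 77.5% ± 8.0 in WB1P and 75.2% ± 7.9 in WB1P-Myc CAFs, and these ranges overlapped. The receptors summed to 60.35 ± 7.7 CPM per kilobase in CD26- and 58.5 ± 3.4 in CD26+ NFs. In CD26+ CAFs the sum was 12.75 to 25.6 CPM per kilobase over the 9 tumor mice, below all NFs, whereas in CD26- CAFs it was 54.5 to 216 CPM per kilobase. Shares and sums are descriptions of these values, and were not tested.

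**Figure D4:**
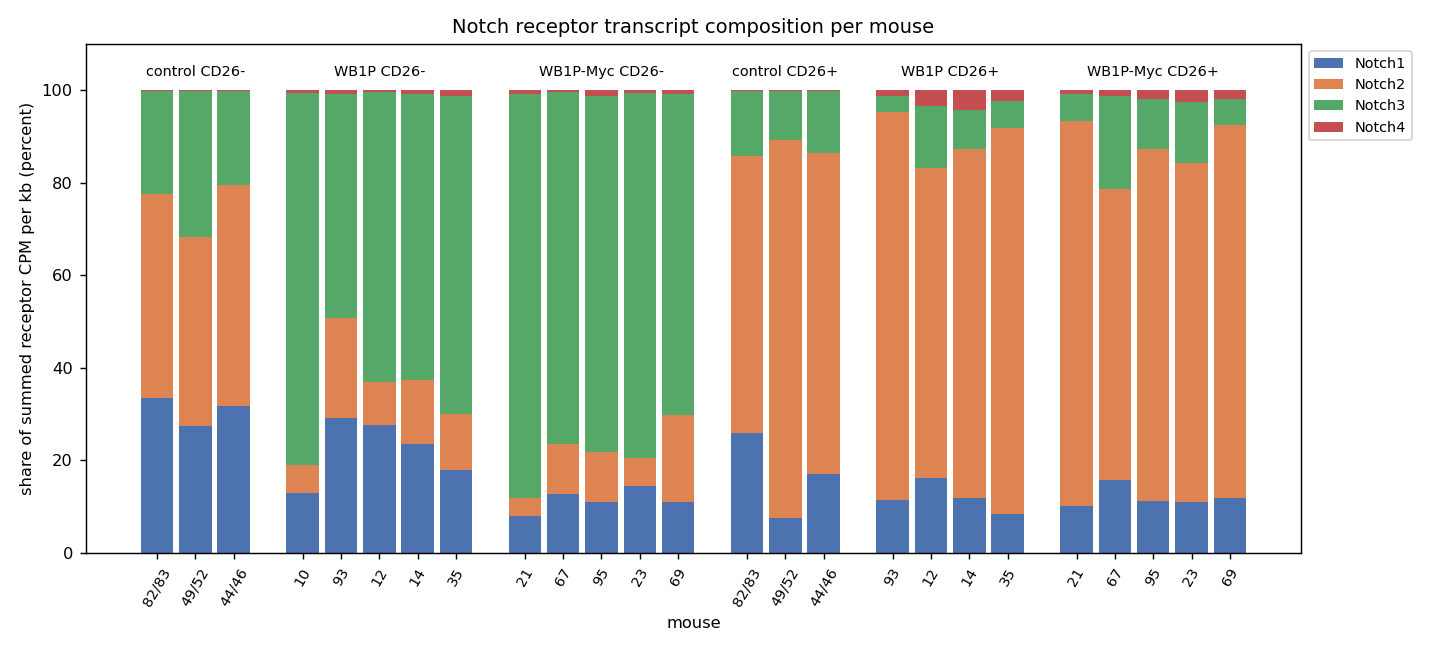
Share of each receptor in the summed receptor CPM per kilobase of all annotated exons, in percent, with 1 bar per mouse and the bars grouped by gland and CD26 class. Notch3 takes 48.5% or more in each CD26- CAF bar and 31.6% or less in every other bar, where Notch2 is the largest share.

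No difference of these genes between En1 classes was called. Among CD26- libraries, En1+ against double-negative, edgeR called 0 of the 10 genes and 0.00642% of all 15584 genes tested, DESeq2 called 0 of the 10, and 1 had an unadjusted p under 0.05 (Notch4, -0.68 ± 0.30 on the log2 scale, FDR = 1.0). Among CD26+ libraries, double-positive against CD26+ only, edgeR called 0 of the 10 and 0.0128% of all genes, DESeq2 called 0, and 0 had an unadjusted p under 0.05. For Notch3 the log2 differences were -0.04 ± 0.27 and 0.42 ± 0.29. With mouse as a replicate block, they were -0.20 (FDR = 0.92) for Notch3 and -0.17 (FDR = 0.97) for Nrarp among CD26- libraries. Within the 4 WB1P mice with both libraries, Notch3 was lower in each En1+ library, at 176, 210, 300 and 373 CPM against 308, 381, 480 and 481 CPM in the double-negative library of the same mouse. Nrarp was lower there as well, at 12.51, 10.2, 12.0 and 9.85 CPM against 19.7, 17.6, 23.4 and 14.45 CPM. In WB1P-Myc, Notch3 was higher in the En1+ library of mice 23 and 69 (835 against 766 and 337 against 272 CPM) and lower in that of mouse 67 (530 against 586 CPM). In the control mice it was 111, 118 and 150 CPM in En1+ and 107, 109 and 117 CPM in double-negative libraries. The WB1P pattern was chosen after its values were seen and was not tested on its own.

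The rest of the pathway was read from a list of 45 further genes, of which 42 were tested. In CD26- CAFs 5 were called higher and 9 lower in WB1P, and 7 higher and 13 lower in WB1P-Myc. In CD26+ CAFs 6 were higher and 8 lower in WB1P, and 6 higher and 11 lower in WB1P-Myc. Of all genes, 17.4% to 19.1% were called higher and 16.1% to 17.8% lower in these comparisons, and nothing particular to the list was tested. Its median was between -0.33 and -0.16 on the log2 scale. Among the genes of receptor cleavage, Adam10, the protease that makes the first cut after ligand binding, was higher in all 4 comparisons (0.55 to 0.78 on the log2 scale), as was Aph1a, a subunit of the gamma-secretase that makes the next cut (0.24 to 0.50). Adam17, another protease of that group, was called lower in WB1P-Myc (-0.72 in CD26- and -0.44 in CD26+ CAFs), with means of 160.0 and 98.2 CPM in CD26- NFs and CAFs. Of the 10 cleavage genes, 3, 5, 4 and 4 were called higher and 1, 2, 0 and 1 lower in CD26- CAFs of WB1P and WB1P-Myc and CD26+ CAFs of WB1P and WB1P-Myc. Among the nuclear factors Spen, a corepressor that binds RBPJ, was lower in all 4 (-1.21 to -1.05). Of the regulators of ligand and receptor turnover, 4 of 11 were called in WB1P CD26- CAFs, 6 in WB1P-Myc CD26- CAFs, 3 in WB1P CD26+ CAFs and 5 in WB1P-Myc CD26+ CAFs, and all of these were lower. Dtx4, a Deltex ubiquitin ligase, was among them in each comparison, with means of 87.3 CPM in CD26- NFs and 34.3 and 45.9 CPM in CD26- CAFs of WB1P and WB1P-Myc. Adam10, Adam17 and Aph1a were chosen for mention after their values were seen.

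The repressor gene Hey2, the HEY family member not included in the 10, was called in the same 5 comparisons as Nrarp. Hey2 was at 0.262 to 0.553 CPM in CD26- NFs, at 2.02 to 6.89 CPM in WB1P and at 4.14 to 17.7 CPM in WB1P-Myc CD26- CAFs, without overlap. Its log2 fold changes were 3.35 ± 0.49 (FDR = 2.2e-05) and 4.52 ± 0.52 (FDR = 1.7e-06). In CD26+ fibroblasts it stayed at or below 0.345 CPM, and the CD26 difference was -3.97 ± 0.48 in WB1P and -5.72 ± 0.47 in WB1P-Myc. It was the only gene of the list called for the difference between tumors and control in the CD26 difference (-3.65 ± 0.70, FDR = 0.0052). Outside the CD26- CAFs Hey2 was near the floor, at no more than 0.553 CPM. It thus passed the low-count filter through the groups where it was high, and its calls lend no support to those of Nrarp. Dtx1, another Deltex gene, was lower in CD26- CAFs (-3.02 in WB1P and -2.27 in WB1P-Myc), at a mean of 1.25 CPM in CD26- NFs and 0.148 and 0.259 CPM in the CAFs. Dlk1, a ligand-like protein without the domain that activates receptors, was called higher in all 4 tumor comparisons, by 4.17 to 5.59 on the log2 scale, with means of 0.927 CPM in CD26- NFs and 20.1 and 47.0 CPM in CD26- CAFs. In WB1P-Myc the Dlk1 values spread widely, from 7.01 to 111 CPM in CD26- CAFs.

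Between the CD26 classes, Rbpj was the gene of the list called in NFs, higher in CD26+ cells (1.43 ± 0.36, FDR = 0.023), at 35.2 to 40.5 CPM in CD26- and 66.4 to 134 CPM in CD26+ NFs. It was also higher in CD26+ WB1P-Myc CAFs (1.05 ± 0.28, FDR = 0.0082). The CD26 classes of CAFs differed in 8 list genes higher and 7 lower in CD26+ cells in WB1P, where 13% of all genes were called in each direction, and in 8 higher and 5 lower in WB1P-Myc, where 9.29% and 10.7% were. Dll1, a Delta-type ligand, was lower in CD26+ CAFs of both (-1.77 ± 0.44 and -1.54 ± 0.41), at no more than 7.97 CPM in any mouse, and Dll4 was lower in those of WB1P-Myc (-1.66, FDR = 0.037). Lfng, a glycosyltransferase that modifies receptors, was lower in WB1P CD26+ than CD26- CAFs (-2.07 ± 0.49, FDR = 0.0035) and in WB1P CD26+ CAFs than in CD26+ NFs (-1.71, FDR = 0.017). Of the 42 genes, 0 were called between WB1P-Myc and WB1P in either CD26 class by edgeR, with 6 and 1 at an unadjusted p under 0.05.

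Genes with a pattern like that of Notch3, Heyl and Jag1 were ranked by Pearson's r of log2 CPM over the 25 sums, among 8877 genes with a mean of at least 10 CPM. The sums share mice, sort gates and libraries, so r is given as a description. The 8 genes most like Notch3 were Sema5b (r = 0.965), Prkar2b, Adgrf5, Rcsd1, Plxnb1, H2-M9, Rgs5 and Esam (r = 0.946). For Heyl they were Unc5b (r = 0.93), Foxs1, Snn, Mgat3, 4833422C13Rik, Alad, Adgre5 and Mcam (r = 0.897). For Jag1 they were Dusp16 (r = 0.872), Dyrk2, Larp4b, Sipa1l2, Slc6a6, Cab39, Mark4 and Ndfip2 (r = 0.813). Rgs5 and Mcam are on the list of pericyte markers used here, and the other genes ranked are on none of the marker lists. Within the 10 genes, Nrarp had an r of 0.921 with Notch3, and Hey1 and Heyl of 0.857 and 0.854 with it, while Hes1 had -0.338.

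In CD26- fibroblasts, pericyte and smooth muscle markers were higher in CAFs, as were Notch3 and Nrarp. All 8 pericyte markers (Rgs5, Kcnj8, Abcc9, Cspg4, Mcam, Higd1b, Cox4i2 and Ndufa4l2) and all 6 smooth muscle markers were called higher in CD26- CAFs of both tumor models. Their sum over the pericyte list ran from 112 to 287 CPM in CD26- NFs, from 1615 to 4641 CPM in WB1P and from 2331 to 9331 CPM in WB1P-Myc CD26- CAFs, from 96.3 to 154 CPM in CD26+ NFs, and from 219 to 377 CPM in WB1P and 186 to 313 CPM in WB1P-Myc CD26+ CAFs. In CD26+ CAFs, where Notch3 fell, 3 of the 8 pericyte markers were called higher and 0 lower in each model, among them Ndufa4l2 (5.23 and 4.21 on the log2 scale) and Kcnj8 (1.79 and 1.72). Of the smooth muscle markers, 3 were called higher there in WB1P and 2 in WB1P-Myc, with Acta2 at 2.34 and 2.18, and Myh11 was called lower in both (-3.10 and -3.52). Rgs5 rose from a mean of 30.2 CPM in CD26- NFs to 1018 and 2291 CPM in CD26- CAFs. It was at means of 2.515 and 5.74 CPM in the CD26+ CAFs. Higd1b was at 0 in 8 of the 25 sums and the other 7 pericyte markers were detected in all. WB1P mouse 10 had both the highest Notch3 value of its group, at 915 CPM, and the highest pericyte sum, at 4641 CPM, and WB1P-Myc mouse 21 likewise, at 1529 and 9331 CPM. The part of these markers in the changes of the Notch genes was not tested. Fibroblast markers summed to means of 35090, 43860 and 37710 CPM in the CD26- groups of control, WB1P and WB1P-Myc. Col1a1 and Col1a2 made up most of each sum. Of the 5 markers, 3 were called lower in CD26- CAFs of each model, and 2 were called higher in WB1P and 0 in WB1P-Myc. Mean Pdgfra was 1558 CPM in CD26- NFs and 414 and 602 CPM in CD26- CAFs of WB1P and WB1P-Myc. For Dcn these means were 4921, 982 and 1770 CPM, and for Lum 2488, 674 and 895 CPM.

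**Figure D5:**
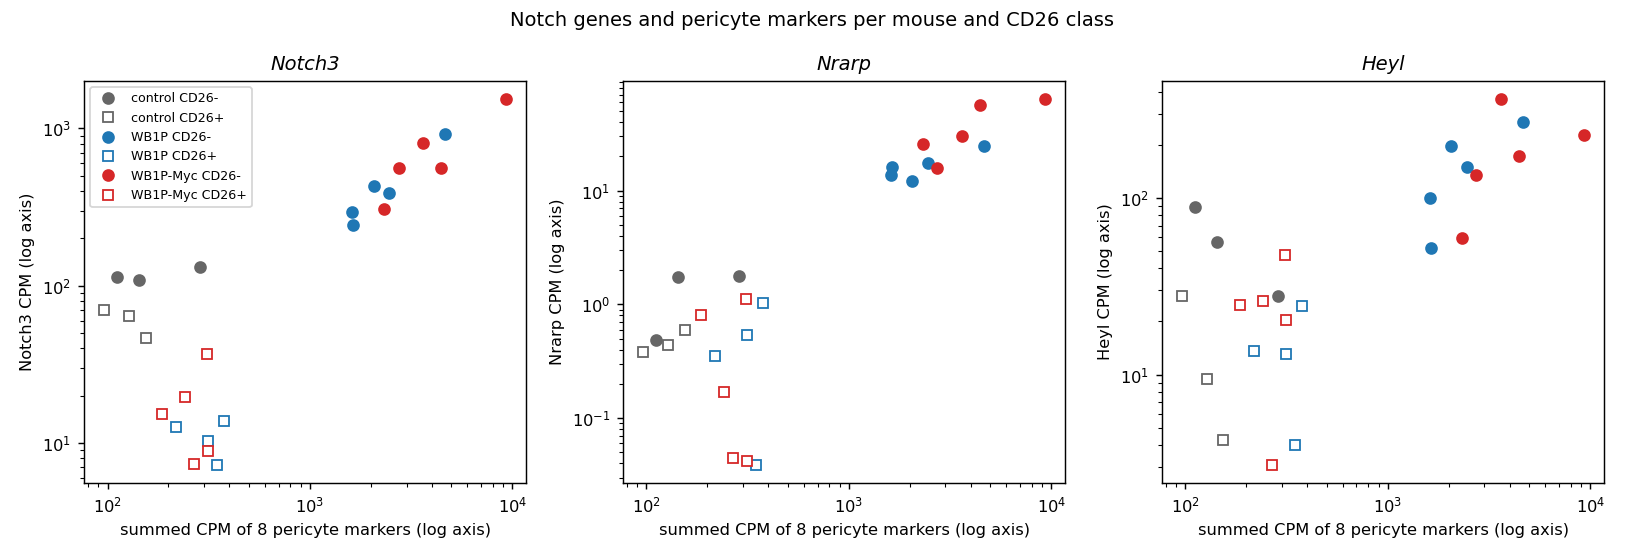
CPM of Notch3, Nrarp and Heyl against the summed CPM of 8 pericyte markers, both on log axes, with 1 point per mouse and CD26 class, filled for CD26- and open for CD26+. The 10 CD26- CAF sums lie at 1615 to 9331 CPM of pericyte markers and at 244 to 1529 CPM of Notch3, and all CD26+ sums at 377 CPM of markers or less.

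The genes lie, in GRCm38 coordinates as the table gives them, on chromosome 2 (Notch1, 26457903-26516663, minus strand; Jag1, 137081456-137116644, minus; Nrarp, 25180758-25183339, plus) and chromosome 3 (Notch2, 98013527-98150361, plus; Hey1, 8663359-8667256, minus). Notch3 (32120820-32166852, minus) and Notch4 (34564268-34588503, plus) lie on chromosome 17, Jag2 on chromosome 12 (112907819-112929776, minus), Heyl on chromosome 4 (123233556-123249875, plus) and Hes1 on chromosome 16 (30064384-30067796, plus). Other annotated genes overlap Notch1, Notch2, Notch3, Notch4, Jag2 and Nrarp, on the opposite strand for Notch1, Notch3, Notch4 and Nrarp. The setting for strand in the counting is not given in the sources used here, and the overlapping genes were at no more than 1.89 CPM in any library, with Gm38287, which lies opposite Nrarp, at no more than 0.435 CPM.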

How the data were processed

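Fibroblasts of 44 libraries from 13 mice were sequenced from stranded mRNA libraries. The authors deposited raw read counts for every gene, without normalization. The submitters' processing notes name HISAT2 2.2.1 and GRCm38, and the counter and annotation release are not given in the sources used here. The table has 1 line that names no gene, with 0 counts. Depth was 5790599 to 15240328 counts per library. Libraries were summed per mouse and CD26 class (25 sums, 6 groups) and fitted with edgeR 4.0.16 (R 4.3.3; TMM, filterByExpr, quasi-likelihood test, Benjamini-Hochberg over 16601 genes, called at FDR under 0.05); En1 classes were fitted on libraries (15584 genes). The scripts were tested on simulated data. Alternatives, among them DESeq2 1.42.0, are given in the closing section. Same-mouse sums deviated together (r = 0.237 to 0.668 over 12 mice; the labels give the mouse), hence the mouse block. In no pair of libraries of 1 group did counts agree within sampling noise (63 pairs). No batch is named in the labels, so that none was tested. The members, the lists and the rule for named genes (all 10; up to 3 list genes per comparison with the largest called change and at least 1 CPM; 8 genes most like Notch3, Jag1 and Heyl) were chosen with earlier results of these data known. Exon lengths come from GENCODE M21, whose positions match the table for all 10, and upstream sequences from RefSeq (GRCm38.p6).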

Additional observations from a re-analysis of the deposited data

Results flagged for a closer look

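Within groups of 4 or 5 mice, 5 values stood apart from the others by more than Dixon's 95% limit, of 40 groups examined, where chance gives about 2.0 (1 in 20). Notch3 was at 915.4 CPM in the CD26- CAFs of WB1P mouse 10, with the next mouse at 428.2 CPM. That sum is 1 En1+ library, and the WB1P difference from control without this mouse was 1.645 on the log2 scale (edgeR FDR = 0.0076). Jag1 was at 419.9 CPM in the CD26+ CAFs of WB1P mouse 93, with the next at 164.6 CPM. Without this mouse the WB1P CD26 difference of Jag1 was -1.10 (edgeR FDR = 0.019), whereas with it the difference was -0.49 (edgeR FDR = 0.37). Notch2 was at 144.7 CPM in the CD26- CAFs of the same mouse, with the next at 94.49 CPM, and the difference from control without it was -1.60. Notch1 was at 51.27 CPM in the CD26+ CAFs of WB1P-Myc mouse 67, with the next at 28.85 CPM, and the difference from control without it was -2.26. Jag2 was at 1.414 CPM, from 33 counts, in the CD26+ CAFs of WB1P-Myc mouse 23, with the next at 0.5417 CPM.

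The CD26 difference of Notch3 and of Nrarp differed between tumors and control by a test of that difference itself. For Notch3 the term was -4.37 on the log2 scale (edgeR FDR = 0.00039), with a CD26- to CD26+ ratio of at least 15.1 in 9 of 9 tumor mice and at most 2.85 in 3 control mice. For Nrarp it was -4.48 (edgeR FDR = 0.0073), on CD26+ sums of 1 to 15 counts.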

How the results depend on the processing

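Of 621 member values called and recomputed under an alternative, 607 kept their call, 14 lost it and 0 changed sign. Most of these alternatives left out 1 mouse, including mice outside the comparison, whose loss reaches it only through the shared fit. Of 1689 values not called, 28 were called under an alternative. Counts of called members that moved by more than 1.5 times were these, with no share of all genes given for those fits. With single libraries as units, 8 of 10 were called in WB1P against control in CD26- fibroblasts (Hes1, Hey1 and Heyl added to the 5), 1 between WB1P-Myc and WB1P in CD26- CAFs (Hes1) and 2 between the CD26 classes of NFs (Heyl and Notch2). Libraries of 1 mouse are taken as independent in that setting. With a fold limit of 2 on the log2 scale, as the study used, 3 were called in WB1P CD26- CAFs, 2 in WB1P CD26+ CAFs and 1 in WB1P-Myc CD26+ CAFs. With mouse as a replicate block, 2 were called between the CD26 classes of NFs, and apart from the calls given with those results it changed no other call. Leaving out 1 mouse gave 1 to 3 called members for the difference between tumors and control in the CD26 difference, with 1 (Notch3) when any control mouse was left out. The counts were 4 to 6 and 4 to 5 in CD26- CAFs against NFs, 4 and 4 to 5 in CD26+ CAFs, 5 to 7 and 5 to 7 between the CD26 classes of WB1P and WB1P-Myc, and 0 in the other comparisons. Calls lost in a single-gene result were those of Jag1, Notch2, Notch4, Hey1 and Nrarp, among them Notch2 in WB1P (0.87) and Notch4 in WB1P-Myc (-1.23) with only the groups compared in the fit. The cause of these changes was not tested. Over all genes, DESeq2 called 726 where edgeR called 120 higher and 231 lower for the difference between tumors and control in the CD26 difference, 402 against 85 between WB1P-Myc and WB1P in CD26- CAFs, 9 against 0 in CD26+ CAFs, and 16 against 1 and 4 against 2 between the En1 classes. Depth limited Nrarp, Jag2 and Notch4, which each had under 50 counts in most CD26+ sums, and 3 control mice limited each comparison with NFs.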
